A study of Mus musculus with 10 samples.

Results

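The genes described here encode 2 small families of transcriptional co-regulators and the acetyltransferases that they work with: Sertad1, Sertad2, Sertad3 and Cdca4 of the SERTA domain family, Cited2 and Cited4 of the CITED family, and Ep300 and Crebbp. They are 8 of the 23309 genes in the authors' RNA table, and all 8 are among its 9619 tested genes. The genes were chosen by name, and selected on their RNA differences and assigned peaks in these same data, so those values are a description and carry no test of the set. The study used mouse erythroid lines. The RNA groups were J2E, an immortalised wild-type fetal liver erythroid line with no transgene (3 libraries), and J2E-KLF3-ER, the same line with tamoxifen-inducible KLF3-ER (3 libraries, from clones A, C and E). All RNA libraries hold RNA labelled for 30 minutes with 500 µM 4-thiouridine (4sU), so they report newly made transcripts. All cells received 200 nM 4-hydroxytamoxifen except the third J2E library, which received ethanol. Chromatin came from 1 KLF3 immunoprecipitate (J2E-KLF3-ER clone C, estrogen receptor antibody) and 1 KLF1 immunoprecipitate (K1-ER clones A and C, KLF1-null erythroblasts carrying KLF1-ER, KLF1 antibody), each with its input and each made from 3 pooled replicates after 3 hours of tamoxifen.

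SERTA domain proteins are nuclear adaptors. SERTAD1 binds the kinase CDK4 and, like SERTAD2, the DP partner of E2F factors, through which it can stimulate E2F-dependent transcription. CITED proteins have no DNA-binding domain and dock onto p300 and CBP, the products of Ep300 and Crebbp, where CITED2 competes with the hypoxia factor HIF1A. In red cell precursors p300 and CBP acetylate histones and several erythroid factors, among them KLF1. KLF1 activates erythroid genes by binding CACCC and related GC-rich elements, and KLF3 is a repressor of the same family that binds similar DNA.

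The promoters of the members on which the results turn are printed here because Sertad1, Sertad3 and Sertad2 carried peaks of both factors, and Cited2, the member that rose, carried none. Each sequence is the 250 bases before a RefSeq start on GRCm38.p6, read 5′ to 3′ on the gene's strand. Capitals mark every match to CCNCNCCC on either strand. Some CACCC-type and GC-box sites meet this pattern and others do not, so lower-case letters may still hold such sites. Overlapping matches run together. The windows are chr7:27486703-27486952 (plus strand) for Sertad1, chr7:27473590-27473839 (plus) for Sertad3, chr11:20542916-20543165 and chr11:20631727-20631976 (plus) for the upstream and downstream starts of Sertad2, and chr10:17722978-17723227 (plus) for Cited2.
Sertad1: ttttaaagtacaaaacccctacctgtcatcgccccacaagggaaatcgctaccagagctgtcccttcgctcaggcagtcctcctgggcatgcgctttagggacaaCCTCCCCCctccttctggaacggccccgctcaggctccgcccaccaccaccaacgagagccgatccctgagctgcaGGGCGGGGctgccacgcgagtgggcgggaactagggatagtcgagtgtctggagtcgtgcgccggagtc
Sertad3: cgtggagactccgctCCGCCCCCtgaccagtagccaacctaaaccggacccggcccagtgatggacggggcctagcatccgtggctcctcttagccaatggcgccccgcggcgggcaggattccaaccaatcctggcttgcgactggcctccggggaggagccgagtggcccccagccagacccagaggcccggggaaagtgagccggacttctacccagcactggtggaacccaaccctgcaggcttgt
Sertad2 upstream start: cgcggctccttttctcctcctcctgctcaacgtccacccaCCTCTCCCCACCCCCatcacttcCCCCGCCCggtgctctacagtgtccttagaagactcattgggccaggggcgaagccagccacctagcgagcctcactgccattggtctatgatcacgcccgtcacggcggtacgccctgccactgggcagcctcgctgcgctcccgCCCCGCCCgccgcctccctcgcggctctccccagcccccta
Sertad2 downstream start: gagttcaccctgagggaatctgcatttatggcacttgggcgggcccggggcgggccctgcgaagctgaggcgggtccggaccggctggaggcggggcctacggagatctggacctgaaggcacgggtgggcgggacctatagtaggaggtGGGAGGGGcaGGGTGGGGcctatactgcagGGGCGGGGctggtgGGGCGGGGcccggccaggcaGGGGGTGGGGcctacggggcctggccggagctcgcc
Cited2: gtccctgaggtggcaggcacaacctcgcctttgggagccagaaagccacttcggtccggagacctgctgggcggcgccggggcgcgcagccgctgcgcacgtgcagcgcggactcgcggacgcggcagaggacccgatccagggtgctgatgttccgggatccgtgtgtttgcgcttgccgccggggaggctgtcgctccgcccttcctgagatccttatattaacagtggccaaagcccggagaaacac

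The Sertad1 window held 2 matches, the Sertad3 window 1, the upstream and downstream Sertad2 windows 5 and 6, and the Cited2 window 0. Of 32841 RefSeq windows of this length, 45.9% held a match, and 6.81% held 5 or more, the number reached at each Sertad2 start. Members whose windows are not printed also reached it. Crebbp, with no assigned peak, held 7 matches, and the windows of Cdca4, which had a KLF3 peak alone, held 7 and 8. Neither gene was called. The shorter pattern CACCC, also searched on both strands, was in 52.0% of all windows. It was found once at Cited2, 2 and 4 times at the Sertad2 starts, and not in the Sertad1 and Sertad3 windows. All 8 members matched a RefSeq symbol, with 10 windows in all, and 9 of the 10 held CCNCNCCC. The 10 include overlapping windows of Cdca4 and both starts of Sertad2. They ran from 58% GC at Cited4 to 84% at Crebbp, where the median of all windows was 52.4%. The part of GC content in the number of matches was not tested. A match is a run of letters and not a bound site.

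The 3 SERTAD genes fell in the KLF3-ER line and Cited2 rose, while the other members were not called. At a q-value below 0.05 in the authors' deposited table, 3 of the 8 members fell, where 1.90% of all tested genes fell, and 1 rose, where 0.821% of all tested genes rose. Because these values chose the members, nothing is read from those shares. The member median was -0.34 on the log2 scale (J2E-KLF3-ER over J2E) and the median of all tested genes 0.03. The table gives 1 pooled FPKM value per group (fragments per kilobase of transcript, scaled to library depth), so no spread between libraries can be set beside a level, and the depth is unknown.

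Sertad1, on chromosome 7 at 28271971 to 28275333 (mm9, as are all coordinates of genes and peaks, with gene loci as the RNA table gives them, which for plus-strand members is 1 base before the authors' start site), was the highest of the 8 in J2E. The authors' deposited table puts it at 41.8 FPKM in J2E and 14.8 FPKM in J2E-KLF3-ER, 2.83-fold lower (log2 difference -1.50, q = 0.00408). That q is tied among 118 genes at the smallest p the table holds, 5e-05. Its rank by size was 25 among the 183 falling genes, and its place among tested genes went from above 87.7% of them in J2E to above 56.5% in J2E-KLF3-ER.

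Sertad3 encodes a SERTA protein that binds a subunit of the single-stranded DNA-binding replication protein A. At chromosome 7, 28258858 to 28262383, it is listed in the authors' deposited table with 8.01 FPKM in J2E and 1.90 FPKM in J2E-KLF3-ER, 4.22-fold lower (log2 difference -2.08, q = 0.0148). It had the steepest fall of the members and ranked 6 among the 183 falling genes. Only 1.11% of tested genes had a lower FPKM in J2E-KLF3-ER, so its fold change rests on a level close to the low end of what was tested. With a pseudocount of 1 FPKM it was -1.64.

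Sertad2, on chromosome 11 at 20443255 to 20553026, fell less. Its levels in the authors' deposited table were 12.4 FPKM in J2E and 7.65 FPKM in J2E-KLF3-ER, 1.62-fold lower (log2 difference -0.70, q = 0.0168), which ranked 155 among the 183 falling genes. At a q-value below 0.01, Sertad2 and Sertad3 were no longer called and Sertad1 was. Whether the 3 genes differed from each other in the size of their fall could not be tested on pooled values.

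Cdca4 encodes the fourth SERTA protein measured here and was first described in haematopoietic progenitors. The authors' deposited table has it at 40.7 FPKM in J2E and 41.0 FPKM in J2E-KLF3-ER (log2 difference 0.01, q = 0.989). In J2E its level was next to that of Sertad1, with no error to set the gap against, and in J2E-KLF3-ER it was the highest of the family. Summed over Sertad1, Sertad2, Sertad3 and Cdca4, the level was 103 FPKM in J2E and 65.3 FPKM in J2E-KLF3-ER. Cdca4 made up 39.6% of that sum in J2E and 62.7% in J2E-KLF3-ER, and Sertad1 40.6% and 22.6%.

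The CITED genes did not move together. Cited2, on chromosome 10 at 17443033 to 17445480, is given in the authors' deposited table as 3.73 FPKM in J2E and 15.1 FPKM in J2E-KLF3-ER, 4.05-fold higher (log2 difference 2.02, q = 0.00408), and ranked 5 among the 79 rising genes. It was the lowest of the 8 in J2E, above 8.23% of tested genes, and the fourth highest in J2E-KLF3-ER, above 57.3%. Cited4, on chromosome 4 at 120339167 to 120340425, stood at 4.42 and 2.59 FPKM in the authors' deposited table (log2 difference -0.77, q = 0.399) and was not called. Its log2 difference was close to the -0.70 of Sertad2, at a lower level. The ratio of Cited2 to Cited4 FPKM was 0.844 in J2E and 5.84 in J2E-KLF3-ER.

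The acetyltransferase genes had nearly equal levels in both groups. For Ep300, on chromosome 15 at 81416643 to 81482507, the authors' deposited table gives 24.0 FPKM in J2E and 25.7 FPKM in J2E-KLF3-ER (log2 difference 0.10, q = 0.840). Crebbp, on chromosome 16 at 4084047 to 4213404, stood at 27.5 and 29.1 FPKM in the authors' deposited table (log2 difference 0.08, q = 0.876). Neither was called, which does not show that they did not differ. No member's locus overlapped another row of the table.

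**Figure D1:**
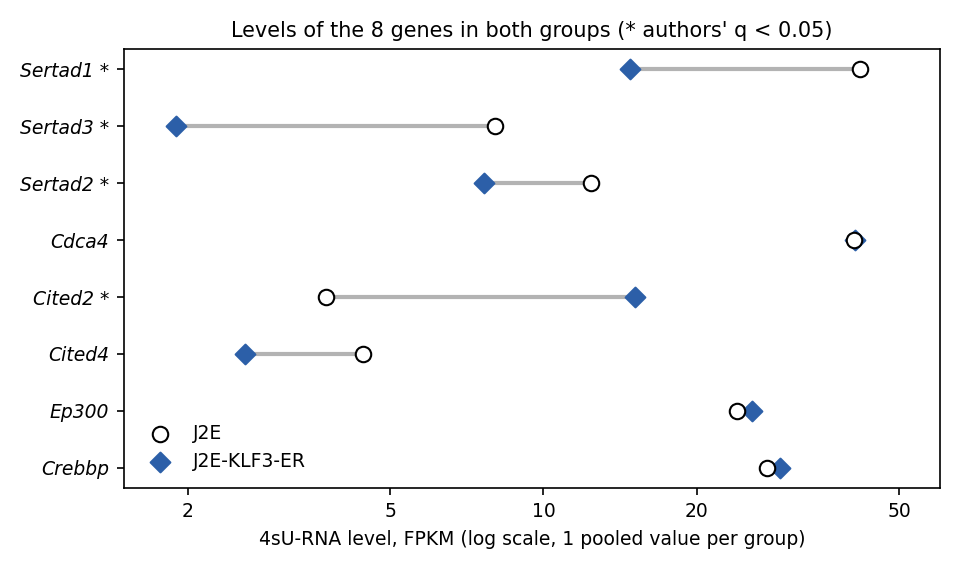
Pooled 4sU-RNA level of each gene in FPKM on a log axis, with an open circle for J2E, a diamond for J2E-KLF3-ER and an asterisk for an authors' q below 0.05. Sertad1, Sertad3 and Sertad2 sit to the left of their J2E value and Cited2 to the right, from 3.73 to 15.1 FPKM, and no error bar can be drawn because each group has 1 value.

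**Figure D2:**
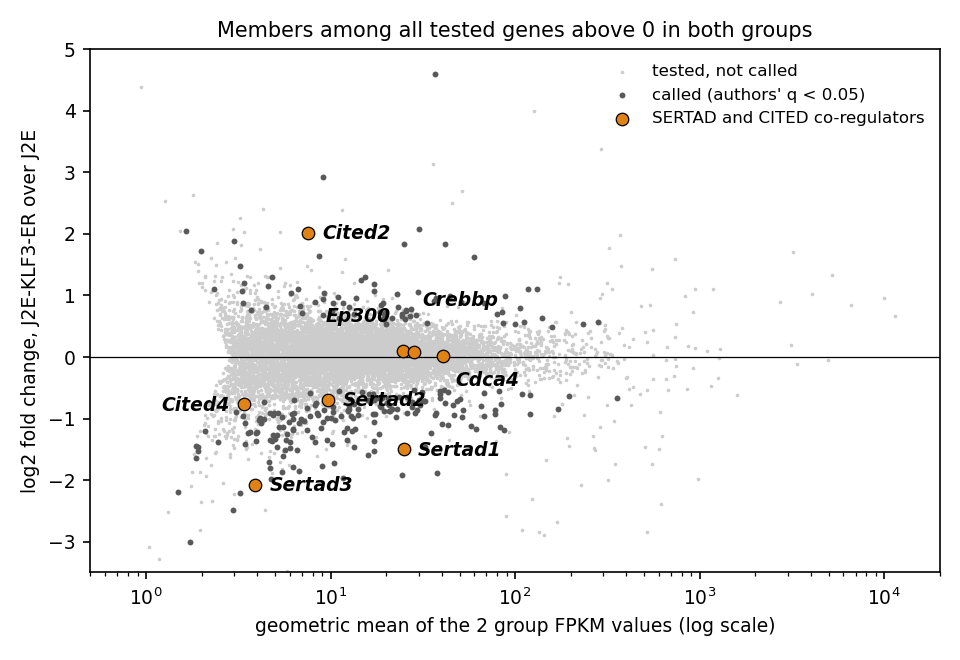
Log2 difference (J2E-KLF3-ER over J2E) against the geometric mean FPKM on a log axis for tested genes above 0 in both groups, with called genes dark and the 8 members in orange. Sertad3 at -2.08, Sertad1 at -1.50 and Cited2 at 2.02 lie at the edge of the cloud, and 6 uncalled genes fall outside the axes.

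A few values of the whole series bear on these. The authors' deposited table lists Klf3 at 7.46 FPKM in J2E and 180 FPKM in J2E-KLF3-ER, and Klf1 at 122 and 55.6 FPKM. Whether the Klf3 row counts reads of the fusion is not stated. No library of J2E-KLF3-ER cells without tamoxifen was in the comparison, and the ethanol-treated J2E library is inside the pooled J2E value, so the line, the clones, the drug and the fusion cannot be told apart. Erythroid marker genes had 9 tested rows, and 2 of them, Epor and Slc4a1, fell, where 1.90% of all tested genes fell. At an unadjusted p below 0.05, 3 of the 9 were lower and 1 higher, against 7.47% and 7.93% of all tested genes. The higher one was Alas2, the first enzyme of erythroid haem synthesis, at 6.21 and 9.28 FPKM in the authors' deposited table (log2 difference 0.58, q = 0.262), and the transferrin receptor gene Tfrc was at 102 and 101 FPKM, both named after their values were seen. The summed level of the 9 was 526 FPKM in J2E and 402 FPKM in J2E-KLF3-ER, and in bulk RNA fewer cells of a type and less RNA per cell cannot be told apart. Megakaryocyte markers summed to 157 and 175 FPKM, nearly all of it Itga2b and Pf4, with none of 2 tested called. Myeloid markers summed to 31.5 and 24.2 FPKM, mostly Csf1r, with none of 2 tested called. Mast cell markers were at most 0.144 FPKM each, with Fcer1a and Mcpt8 listed at 0 in both groups, and lymphoid markers were at most 0.615 FPKM. The part of these markers in the members' differences was not tested. The median log2 difference of all tested genes on the members' chromosomes lay between -0.07 and 0.14. Set against the median of its own chromosome, a choice made after seeing the data, Sertad1 was at -1.50, Sertad3 at -2.08, Sertad2 at -0.80 and Cited2 at 2.00.

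Peaks of both factors were assigned to the 3 SERTAD genes and to no other member. The authors' lists name the nearest start site of each peak, and by that column 6 of the 8 members had a KLF3 peak, against 32.3% of tested genes. A KLF1 peak was assigned to 3 members, against 19.1% of tested genes, and peaks of both factors to 3, against 13.0%. With only the peaks ranked above the middle of each list, 2 members kept peaks of both factors, and Sertad3 did not. At Sertad1 the peaks kept were the KLF3 promoter peak (21.5) and the distal KLF1 peaks (34.4 and 25.7), which did not overlap. The members' peaks were among the values that chose them, so these shares are a description. The 6 members held 13 of the 4579 KLF3 peaks, in 11 distinct intervals, and the 3 SERTAD genes held 10 of the 3800 KLF1 peaks, in 9 intervals. Each list came from 1 pooled library, so binding has no replicate, and no difference between the lists can be laid to the factor alone, since cells and antibody change with it. Enrichment values are the authors' and are compared only within a list.

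At Sertad1 the factors shared 3 sites, and the promoter site held a different place in the order of height in each list. The KLF3 promoter peak, at 28271743 to 28272085, had its summit 85 bp upstream of the start and an enrichment of 21.5, rank 165 of the KLF3 list. The KLF1 peak at the same place, at 28271750 to 28271996, had its summit 8 bp away, 93 bp upstream of the start, and an enrichment of 8.37, rank 2362 of the KLF1 list. For KLF3 this was the highest of the 3 Sertad1 sites, and for KLF1 it was the lowest, while the upstream site was higher than the downstream one in both lists.

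The other Sertad1 sites flanked the gene. A distal KLF1 peak 5265 bp upstream, at 28266437 to 28266956, reached an enrichment of 34.4, rank 140, and the KLF3 peak inside it, with its summit 75 bp away, had 7.45, rank 2588. A KLF1 peak 3966 bp downstream of the start, at 28275641 to 28276095 and just past the end of the gene, reached 25.7, rank 292. The KLF3 peak that overlapped it by 385 bp had 4.10, rank 4501 of 4579, with its summit 260 bp away.

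Sertad3 lies on the same strand as Sertad1, with its start 13113 bp upstream of the Sertad1 start in the authors' files, and the RefSeq starts are the same 13113 bp apart. It had a KLF3 peak in an intron, 766 bp downstream of its start at 28259486 to 28259847, with an enrichment of 12.4, rank 913. A KLF1 peak lay within it, its summit 19 bp away, with an enrichment of 4.97, above only 3.42% of the KLF1 list. A KLF3 peak at the promoter, 429 bp upstream at 28258202 to 28258684 (9.67), overlapped no KLF1 peak. The strongest KLF1 peak between these genes, the one 5265 bp upstream of Sertad1, is 7849 bp from the Sertad3 start and was assigned to Sertad1 as the nearer one.

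**Figure D3:**
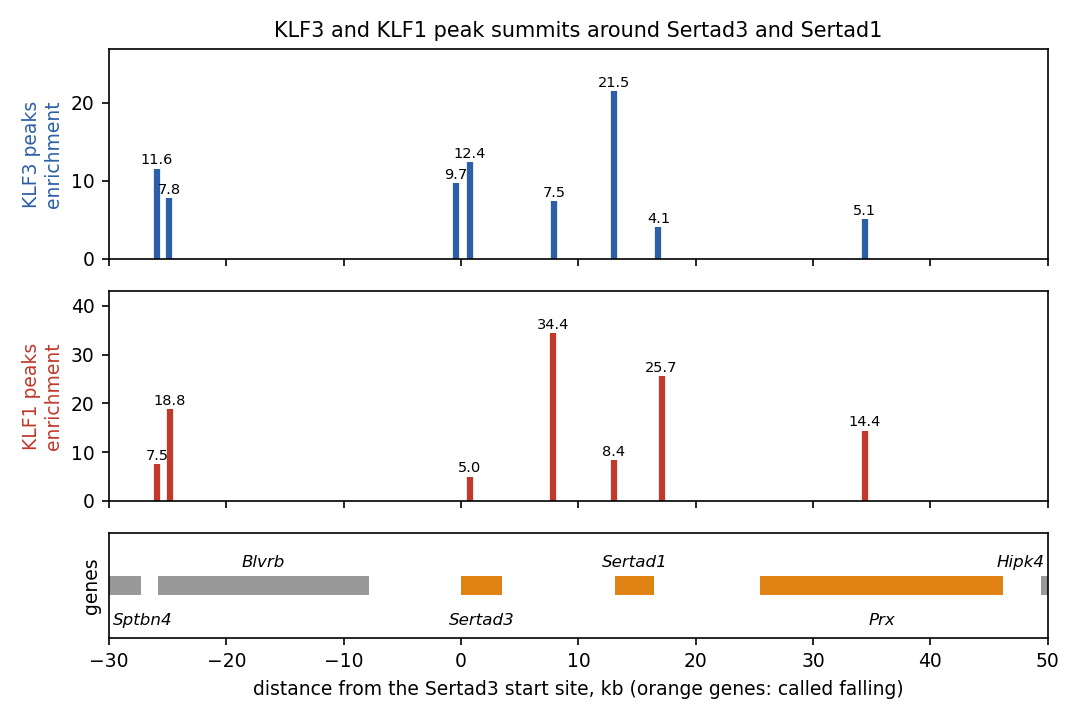
Enrichment of each KLF3 (top) and KLF1 (middle) peak against the distance of its summit from the Sertad3 start in kb, with genes drawn to scale below and genes called falling in orange. Enrichment axes differ between the factors and start at 0. The highest KLF3 bar, 21.5, stands at the Sertad1 start, and the highest KLF1 bars, 34.4 and 25.7, stand on either side of it.

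Genes next to this pair were looked at by distance. Within 100 kb of the Sertad1 start lay the starts of 7 other genes, of which 4 were tested and 2 called, namely Sertad3 and Prx. Sertad3 was itself selected on its RNA difference, so of these only Prx is a called gene from outside the set. Prx encodes the scaffold protein periaxin and starts 12371 bp downstream of the Sertad1 start. It is listed in the authors' deposited table at 5.89 FPKM in J2E and 2.95 FPKM in J2E-KLF3-ER (log2 difference -0.997, q = 0.00995). Prx also held a shared intron site, with a KLF1 enrichment of 14.4 and a KLF3 enrichment of 5.07. Blvrb, the biliverdin reductase gene on the other side of Sertad3, was not called, at 43.2 and 37.6 FPKM in the authors' deposited table (log2 difference -0.20, q = 0.732), although it too held 2 sites of each factor, all overlapping. Around all 8 members, 18 genes outside the set started within 100 kb, 5 were tested, and of those Prx was the 1 called. Of all tested genes 2.72% were called in either direction, and with 5 tested neighbours nothing is read from the difference. Sertad2 had no other start within that distance.

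Counted by listed summit, Sertad2 carried the most peaks of the members. By distinct interval Sertad1 had more KLF3 sites, 3 against 2. Sertad2 has starts at 20443256 and 20531980 in the authors' annotation, and both had peaks of both factors. At the downstream start KLF1 and KLF3 summits lay 14 bp apart, 219 and 205 bp upstream, with enrichments of 19.2 (rank 582, 20531553 to 20531956) and 13.8 (rank 685, 20531655 to 20532104). The KLF3 interval there was listed again with a summit 13 bp past the start (8.04).

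At the upstream start a KLF1 interval from 20442385 to 20443362 had summits 747 and 326 bp upstream (16.1 and 7.39). The KLF3 interval that overlapped it by 570 bp, from 20442793 to 20443395, had summits 253 bp upstream and 3 bp downstream (5.23 and 8.49). KLF1 alone was found at 3 further sites, in an intron 655 bp downstream (6.19) and at 10872 and 79740 bp upstream (19.9 and 5.88). Sertad2 thus had 6 KLF1 peaks in 5 distinct intervals and 4 KLF3 peaks in 2. Of the genes in each list, 0.361% had 6 or more KLF1 peaks and 0.665% had 4 or more KLF3 peaks, counted by listed summit and not by interval. The RefSeq starts of Sertad2 are 88811 bp apart on GRCm38.p6 and the authors' 88724 bp apart on mm9, so the printed Sertad2 windows were not lined up with these summits.

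For Sertad1 the printed window can be read beside the peaks only by distance from the start. Its matches to CCNCNCCC run from 145 to 138 and from 69 to 62 bases upstream of the RefSeq start, and the summits lay 85 and 93 bp upstream of the authors' start. The single Sertad3 match runs from 235 to 228 bases upstream, where no summit was listed; its KLF3 promoter summit, 429 bp upstream, lies outside the window.

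The members without KLF1 peaks had assigned peaks of KLF3 alone or of neither factor. Ep300 had a KLF3 promoter peak 82 bp upstream of its start (81416415 to 81416726, enrichment 15.2, rank 525) and another 1039 bp upstream (7.62). Cited4 had a KLF3 promoter peak 148 bp upstream (120338907 to 120339151, 10.3), and Cdca4 had one 332 bp upstream (chromosome 12, 114067828 to 114068032, 8.40). None of these 4 peaks overlapped a KLF1 peak, the nearest KLF1 summits to these starts being 33499 bp from Cdca4, 63128 bp from Ep300 and 64586 bp from Cited4. Called and uncalled members therefore both had KLF3 promoter peaks.

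Crebbp and Cited2 had no assigned peak. Crebbp had 1 KLF3 summit, 54787 bp from its start and assigned to Gm5766, and no KLF1 summit within 100 kb. Cited2 had no summit of either factor within 100 kb. The nearest KLF3 summit was 1122126 bp away, a distance that 3.97% of tested genes reach or exceed, and the nearest KLF1 summit was 701228 bp away, reached or exceeded by 14.9%. Of all tested genes 24.2% had no summit of either factor within 100 kb. None was found that near for 28 of the 79 rising genes (35.4%) and 47 of the 183 falling genes (25.7%). The difference between these shares was not tested.

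Of the 13 KLF3 peaks of the members, 8 shared 1 bp or more with a KLF1 peak, against 34.0% of all KLF3 peaks, and all 8 belonged to the SERTAD genes. Peaks are counted by listed summit, so the 2 shared KLF3 intervals of Sertad2 enter as 4 peaks. With only the peaks ranked above the middle of each list, 3 of 9 member KLF3 peaks overlapped a KLF1 peak, against 28.0% of all such KLF3 peaks. Those 3 were all summits of Sertad2, in its 2 KLF3 intervals. Of the 10 KLF1 peaks, 7 overlapped a KLF3 peak, against 39.3% of all KLF1 peaks. The 3 unshared ones were the Sertad2 sites described above.

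**Figure D4:**
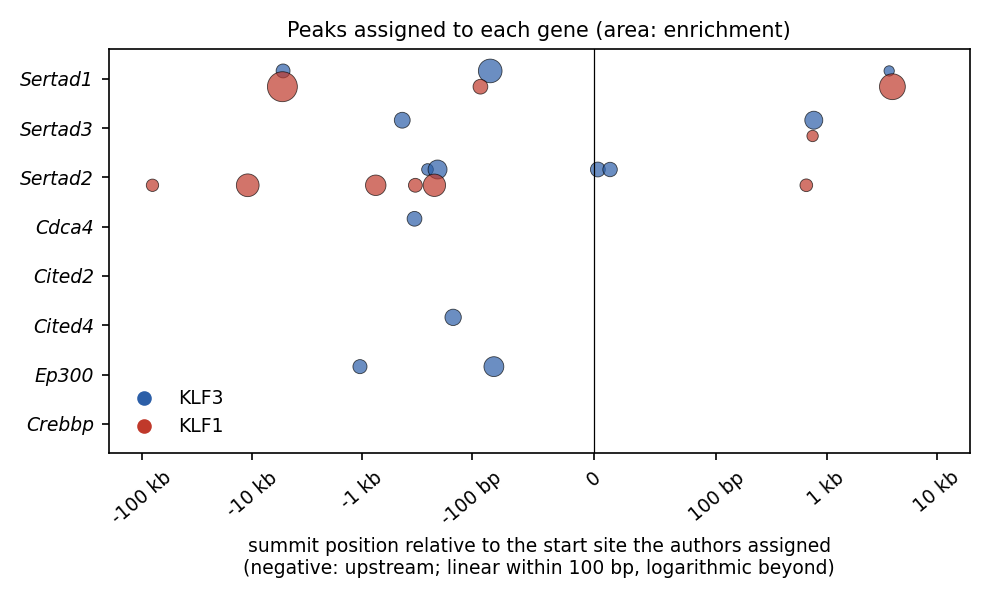
Position of each assigned peak summit relative to the start site the authors assigned, upstream to the left, on an axis that is linear within 100 bp and logarithmic beyond, with circle area in proportion to enrichment. Sertad1, Sertad3 and Sertad2 show both colours, Cdca4, Cited4 and Ep300 show KLF3 alone, and the rows of Cited2 and Crebbp are empty.

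The authors' lists also carry a label for whether the nearest gene changed. In the KLF3 list the label follows the RNA comparison above, since all 92 genes labelled down were called falling there, and all 9 KLF3 peaks of Sertad1, Sertad3 and Sertad2 read down. That label stands at 154 of the 4579 KLF3 peaks (3.36%). In the KLF1 list the label belongs to a comparison headed K1vsK1ER, whose values were not analysed here and whose direction is not given in the sources used here, and all 10 KLF1 peaks of the SERTAD genes read up. There the up label stands at 721 of the 3800 peaks (19.0%), and nearly every labelled gene reads up, 387 genes against 16 that read down. In the KLF3 list 92 genes read down and 16 read up.

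The pathways that these proteins feed were followed with 4 lists of 101 different genes, of which 89 were tested. By the q-values of the authors' deposited table, 4 of them fell, where 1.90% of all tested genes fell, and none rose, where 0.821% rose. At an unadjusted p below 0.05 in that table, 8 of the 89 were lower and 6 higher, where 7.47% of all tested genes were lower and 7.93% higher. The list of DP/E2F and CDK4 partners, the machinery of G1 that SERTAD proteins touch, had 3 falling genes of 24 tested, against the same 1.90%. Its median log2 difference was -0.10. At an unadjusted p below 0.05, 6 of its genes were lower and 1 higher. The authors' deposited table lists E2f2, an E2F factor of erythroid cells, at 92.3 FPKM in J2E and 41.1 FPKM in J2E-KLF3-ER (log2 difference -1.17, q = 0.00408). Of the CDK inhibitor genes, the authors' deposited table has Cdkn2b at 18.0 and 7.73 FPKM (log2 difference -1.22, q = 0.00408) and Cdkn1b at 11.3 and 4.96 FPKM (log2 difference -1.19, q = 0.00707). E2f2 encodes a factor that drives genes of DNA replication, and Cdkn2b and Cdkn1b encode proteins that restrain G1 kinases.

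None of 19 tested HIF response genes, the targets of the factor that CITED2 competes with, was called, and at an unadjusted p below 0.05 there was 1 higher gene, where 7.93% of all tested genes were higher, and no lower one. The higher gene was Ankrd37, a hypoxia-induced ankyrin repeat gene, at 2.18 and 4.90 FPKM in the authors' deposited table (log2 difference 1.17, q = 0.272). Ldha, the lactate dehydrogenase gene with the next lowest p, stood at 210 and 254 FPKM in the authors' deposited table (0.27, q = 0.379). The list median was -0.06. Of 19 tested coactivator genes, which include other acetyltransferases and Mediator subunits, none was called, 1 was higher and none lower at an unadjusted p below 0.05, and the median was -0.01. The lowest p-values of the list in the authors' deposited table belonged to Med1, with a log2 difference of 0.36 (q = 0.288), and Ncoa2, with 0.28 (q = 0.421). Of 27 tested factors that bind CBP or p300, only Klf1 was called, at -1.14 in the authors' deposited table, where 1.90% of all tested genes fell. The median of these factors was -0.13. At an unadjusted p below 0.05, 3 of them were higher and 2 lower. At that threshold 7.93% of all tested genes were higher and 7.47% lower, the shares for every list here.

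**Figure D5:**
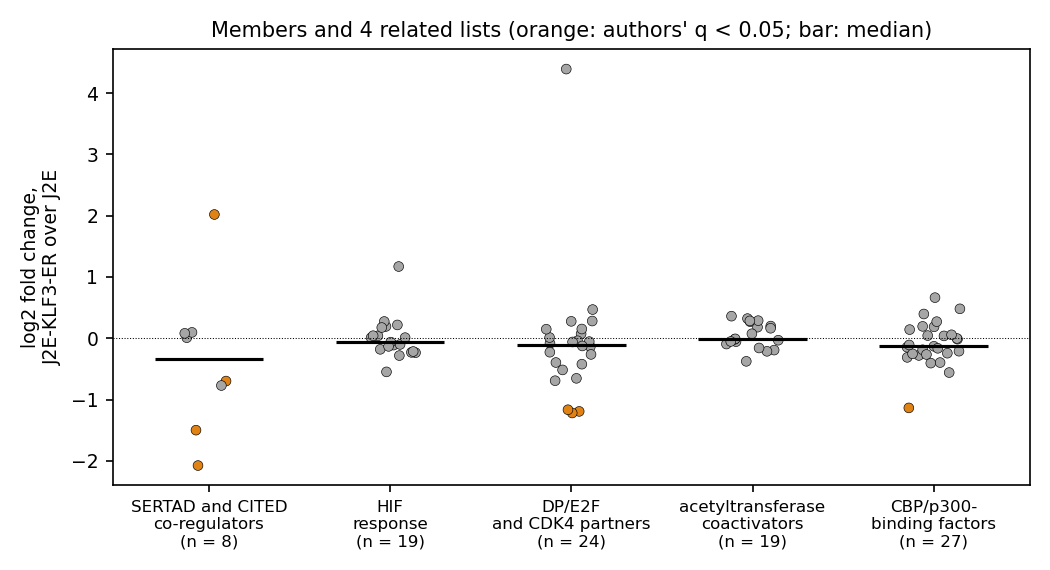
Log2 difference of each tested gene in the 8 members and in 4 related lists, with genes at an authors' q below 0.05 in orange and the median as a bar. Called genes lie at both ends among the members, and the list medians run from -0.13 to -0.01.

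The tested genes whose pair of FPKM values came closest to those of each called member were found by Euclidean distance in log2 FPKM over the 2 groups, among 8655 genes. For Sertad1 these were Klf10 (0.30), Midn (0.42) and Map3k6 (0.43), all called falling and all with peaks of both factors. Of all tested genes 13.0% had peaks of both. For Sertad3 they were H2-M9 (0.35), Cort (0.39) and Isg20 (0.39), of which only Isg20 was called. H2-M9 and Cort had no peak of either factor, and Isg20 had a KLF1 peak alone. For Sertad2 they were Ier3 (0.01), Uchl4 (0.03) and Pcdhb5 (0.03), and for Cited2 Mrpl54 (0.39), Cd200r1 (0.39) and Ndufb3 (0.44). Of these last 6 only Cd200r1 was called, and none of the 6 had a peak of either factor. Of all tested genes 32.3% had a KLF3 peak and 19.1% a KLF1 peak. The direction of these genes follows from how they were picked. With 2 values per gene this likeness describes levels and no more, and nothing is read from the peaks of so few genes.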

How the data were processed

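The RNA table was made by the authors from 6 libraries of 4sU-labelled RNA and the peak lists from 4 chromatin libraries. The submitters' processing notes name mm9, TopHat2 2.0.10, MACS 1.4.2 and MACS2. What each tool did, and which one compared the RNA groups, is not given in the sources used here. For RNA the authors deposited 1 pooled FPKM value per group (per the file headers), a log2 fold change (J2E-KLF3-ER over J2E, no pseudocount), a test statistic, which is a score of their test, and its p-value and q-value. The deposited q-values match the p-values of the 9619 tested genes adjusted by Benjamini-Hochberg, to within 5.26e-07. The authors' peak lists give a fold enrichment (a ratio), a summit and the nearest start site. The J2E-KLF3-ER libraries are 3 clones and the ethanol-treated J2E library was treated apart, while nothing in the labels says whether the other 2 J2E libraries were separate cultures, so part of the spread behind the p-values may be technical. For FPKM, depth per library is unknown and no interval was computed.

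Since the table holds no values per library, no model was refitted, and a gene was called at the authors' q below 0.05. The 93 blank rows were dropped. The 8 members, the 4 pathway lists and the 5 marker lists were chosen with earlier results of these data known. Named genes were the members, called list genes (or the 2 with the lowest p), neighbours within 100 kb and the 3 genes most alike in level per called member. Distances were made strand-aware, and peaks overlapped from 1 bp. Promoters are 250 bases from RefSeq (GRCm38.p6), of 32841 windows searched. Adjustment, overlap and motif search were tested on simulated data. Alternatives covered the q threshold, a 1 FPKM filter, a pseudocount, centring, peak distance, rank and overlap. Python 3.11.15, pandas 2.3.3, NumPy 2.4.6 and matplotlib 3.10.9 were used.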

Additional observations from a re-analysis of the deposited data

How the results depend on the processing

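At a q-value below 0.01 the members called falling numbered 1 in place of 3, with Sertad2 and Sertad3 lost. With only the peaks ranked above the middle of each list, 3 of 9 member KLF3 peaks overlapped a KLF1 peak in place of 8 of 13. Those 3 were all summits of Sertad2. Uncalled members near 0 changed sign: centred on the median of tested genes Cdca4 was at -0.017, and centred on the chromosome median, a choice made after seeing the data, Cdca4 was at -0.11, Ep300 at -0.045 and Crebbp at -0.011 on the log2 scale. These follow from the settings themselves. At a q-value below 0.10, falling factors that bind CBP or p300 numbered 2 in place of 1. At that threshold the falling genes of all pathway lists numbered 6 in place of 4. With only the peaks ranked above the middle of each list, members with a KLF1 peak numbered 2 in place of 3, with Sertad3 lost. Members with peaks of both factors also numbered 2 in place of 3. The other settings moved no count of called members, list genes, bound members or shared peaks by 1.5 times or more. No paired analysis was possible because the table holds 1 pooled value per group, and for the same reason no replicate could be left out. Depth per library is unknown, which limits most what can be said of Sertad3 and Cited4, the members with the lowest levels in J2E-KLF3-ER.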

Other observations

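Other members of the families were measured but not tested by the authors. The authors' deposited table has Cited1 at 0.409 FPKM in J2E and 2.42 FPKM in J2E-KLF3-ER, and Sertad4 at 0.0462 and 0.131 FPKM. Among the cell cycle genes Cdkn2a, singled out after its values were seen, is listed in the authors' deposited table at 0.206 and 4.32 FPKM, a log2 difference of 4.39 that was not called (q = 0.652). Pld3, a phospholipase D family gene whose start is 66160 bp from the Sertad1 start, stood at 2.16 and 0.785 FPKM in the authors' deposited table and was not tested.

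The promoter windows of the members that were not called also held the CCNCNCCC pattern. The Cdca4 windows, which overlap each other, held 7 and 8 matches, the Crebbp window 7, the Ep300 window 3 and the Cited4 window 2. Overlapping matches were counted separately, and at Crebbp all but the match nearest the start overlap in a run of G. The peak summits of Sertad3 lie outside its window. Whether match numbers go with peaks was not tested.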
